A study of Drosophila melanogaster with 9 samples.

Results

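The fat body of Drosophila melanogaster was compared between larvae early in the third instar and white prepupae gene by gene, in the libraries whose value columns name LacZ, the control transgene. Of the 10242 genes in the deposited tables, the 10139 with a normalised value of at least 1 in at least 3 of the 9 libraries were tested. The 6 libraries compared were 3 from larvae and 3 from prepupae. Each library came from the fat bodies of 5 staged animals, whose eggs spent 21 h at 21 °C before rearing at 25 °C. The larvae carried UAS-LacZ/+; Lsp2-GAL4/+ according to their labels. The driver Lsp2-GAL4 uses the promoter of a storage protein gene that is switched on in the fat body late in larval life, and all groups of the study carried it.

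The labels of the prepupae contradict each other. The 3 prepupa libraries used here have value columns named WP-LacZ, sample titles that say WP_mitf, and a genotype label of UAS-Mitf/+; Lsp2-GAL4/+. The 3 other prepupa libraries have columns named WP-mitf, titles that say WP_LacZ, and the same UAS-Mitf/+ genotype label. Mitf, the only member of the MITF and TFEB transcription factor family in flies, read 347, 370 and 407 in the libraries of the WP-LacZ columns and 378, 385 and 411 in the larvae. In the libraries of the WP-mitf columns it read 35204, 68535 and 45647. The comparison is defined by the column names, not by these values: "prepupae" below means the libraries of the WP-LacZ columns, and every difference is prepupae minus larvae. Whether replicates were separate crosses or days is not in the labels, so p-values measure the spread between these samples, which may be technical. The comparison spans the rest of the third instar as well as puparium formation.

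The fat body is the insect organ of storage, metabolism and secretion, with roles that in mammals fall to liver and adipose tissue. During the third instar it builds fat, glycogen and hexamerin storage proteins, and secretes much of the protein of the hemolymph. Pulses of 20-hydroxyecdysone, the active steroid hormone, end feeding and start metamorphosis: at that time the fat body takes storage proteins back up, degrades much of its own cytoplasm by autophagy, and later falls apart into single cells. Mitf and its mammalian relatives are known as activators of lysosomal genes.

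Fat body identity was plain in all 6 libraries. The 6 genes for storage proteins and their relatives, Fbp1, Fbp2, Lsp2 and the Lsp1 trio, held 42.6%, 39.5% and 29% of the summed values in the larvae and 42.8%, 42.1% and 41.4% in the prepupae. Summed values were between 22604438 and 27178650 in the larvae and between 23607147 and 24354238 in the prepupae. Between 11.5% and 15.1% of genes were listed at 0 in a larval library and between 9.77% and 10.8% in a prepupa library. Because these are bulk samples, fewer cells of a type and less RNA per cell cannot be told apart.

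The change between the stages reached most of the transcriptome. In the fit of limma across all genes on log2(value + 1), 6737 genes (66.4% of those tested) passed an adjusted p of 0.05. Of these, 3524 were higher in prepupae (34.8% of the genes tested) and 3213 were lower (31.7%). All 3 prepupa values lay above all 3 larval values for 3772 genes (37.2%) and below them for 3440 genes (33.9%). A log2 difference of at least 1 was reached by 2598 of the higher and 2318 of the lower genes, and one of at least 5 by 314 and 151. The median log2 difference over all genes tested was 0.08. With such a background, a count of called members says little about a gene group by itself, and the sizes and directions carry more of the description. The plot of group means shows the cloud of genes widening away from equality on both sides.

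**Figure D1:**
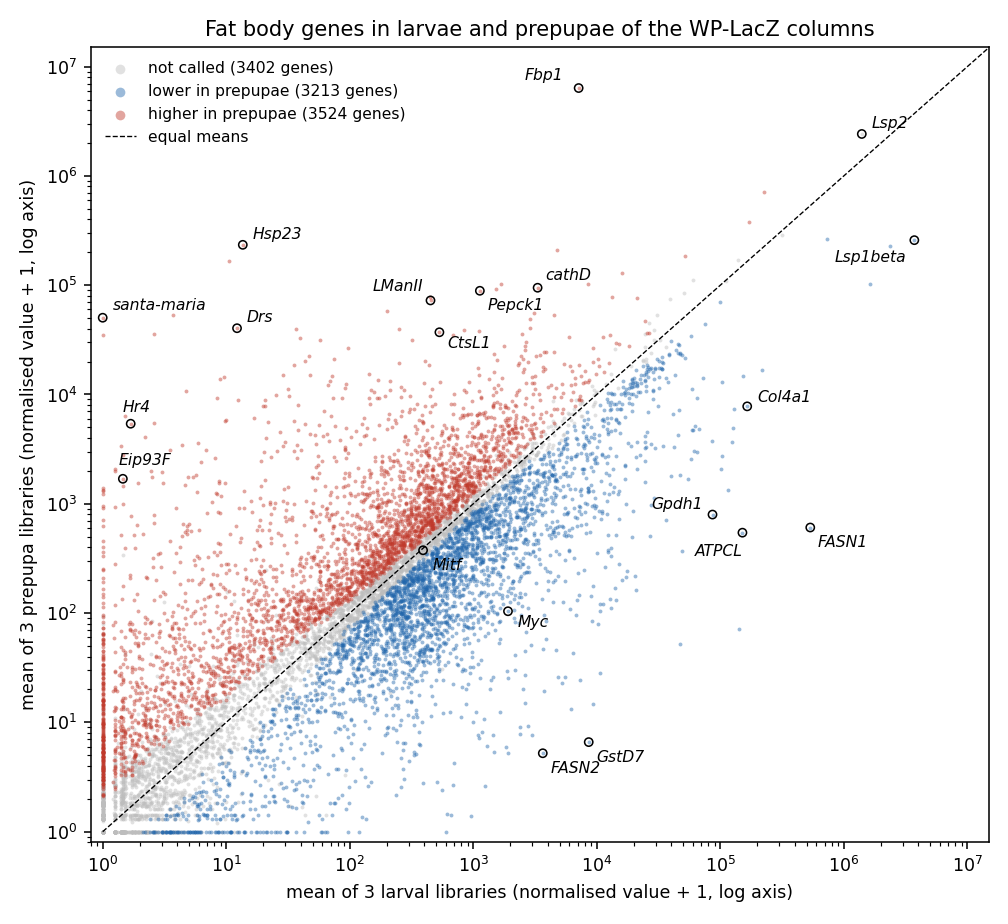
Each point is 1 of the 10139 tested genes, with the mean of 3 larval libraries on the horizontal and the mean of 3 prepupa libraries on the vertical axis (normalised value + 1, both axes log). Coloured points are the 3524 genes higher and the 3213 genes lower in prepupae at an adjusted p of 0.05 in limma, and the dashed line marks equal means; Fbp1 and Hsp23 lie far above the line, FASN1 and GstD7 far below it.

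Genes for storage proteins and their relatives exchanged places. Fbp1 (FBgn0000639, 3L:14094589-14098053 on the minus strand, BDGP6), the receptor through which fat body cells take hexamerins back up, read 10608, 9185 and 1597 in the larvae and 6266126, 6402541 and 6431194 in the prepupae. Every prepupa lay far above every larva, with a log2 difference of 10.21 ± 0.61 (SE, limma, adjusted p = 2.7e-07). It took 26.2%, 27.1% and 26.4% of the summed values of the prepupae, against at most 0.039% in a larva. The hexamerin genes Lsp1alpha, Lsp1beta and Lsp1gamma, whose subunits form the main larval serum protein, moved the other way. Lsp1beta read 4101874, 3816897 and 3247336 in the larvae and 280545, 240526 and 253856 in the prepupae, a log2 difference of -3.85 ± 0.37 (adjusted p = 8e-06). Lsp1alpha differed by -3.95 ± 0.29 and Lsp1gamma by -3.24 ± 0.44, both with groups that did not overlap. Together the 3 Lsp1 genes fell from 34.4%, 33.2% and 24.3% of the larval libraries to 2.68%, 2.47% and 2.24% of the prepupa libraries.

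Lsp2, a hexamerin of its own type, stayed high. It read 1899455, 1334194 and 960083 in the larvae and 2568149.5, 2228410.0 and 2461725 in the prepupae, so that all prepupae lay above all larvae, but the spread among larvae was wide and the log2 difference of 0.84 ± 0.38 did not pass (adjusted p = 0.076). It passed without larval replicate 1, at 1.09 (adjusted p = 0.031). Fbp2, an alcohol dehydrogenase relative of the late larval fat body, read 320760.3, 268589 and 94007 in the larvae and 774636, 731635 and 649525 in the prepupae and rose by 1.83 ± 0.43 (adjusted p = 0.0034). In both Fbp genes, in Lsp2, in Lsp1beta and in Lsp1gamma the same larval library, replicate 3, was the lowest of its group. Lsp1gamma there read 1090495 against 3125743 and 2934351. Without that library the log2 difference of Lsp2 was 0.60 (adjusted p = 0.17) and that of Fbp2 1.29 (adjusted p = 0.0018). Levels between genes can be set side by side only per length of transcript: per kb of annotated exon, the mean of the prepupae was 1837408 for Fbp1, 976758 for Lsp2 and 669087 for Fbp2. In the larvae the mean per kb was 1353959.9 for Lsp1beta, 953031 for Lsp1gamma, 618484 for Lsp1alpha and 564356 for Lsp2.

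**Figure D2:**
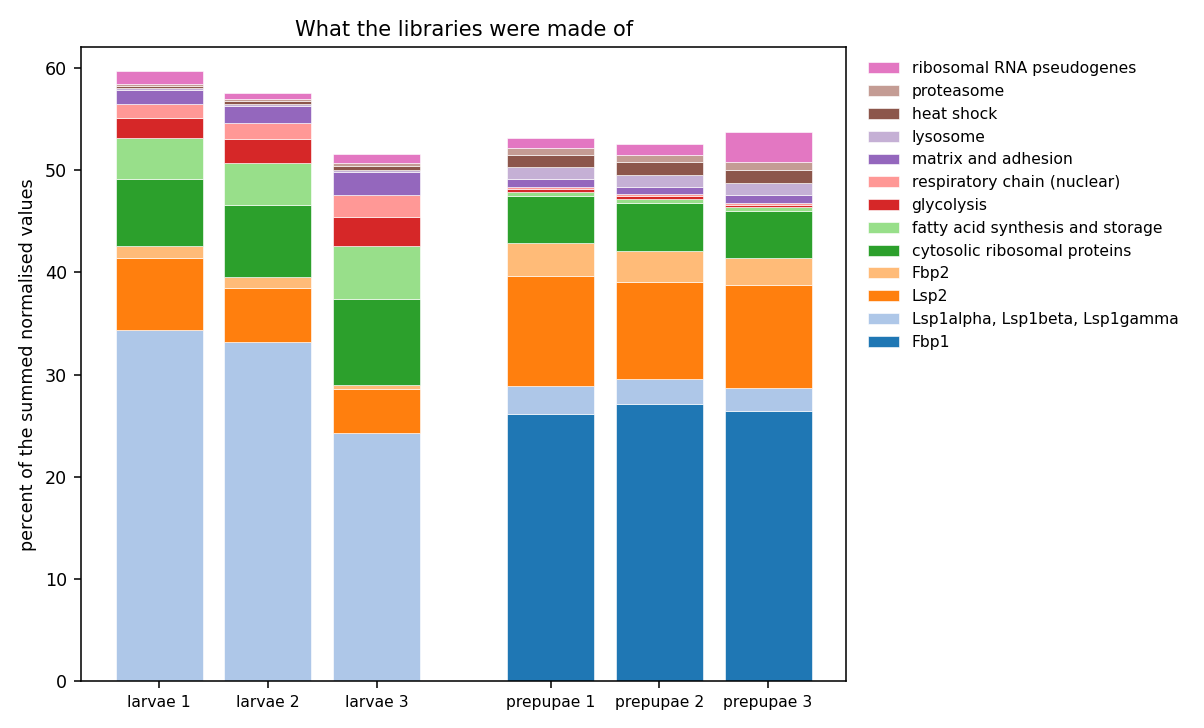
Stacked bars give, for each of the 6 libraries, the percent of its summed normalised values held by Fbp1, the 3 Lsp1 genes, Lsp2, Fbp2 and the summed members of 9 gene lists (vertical axis, percent, from 0). The larval bars are filled mostly by Lsp1 genes and the prepupa bars by Fbp1 and Lsp2, while the shares of fatty acid synthesis, glycolysis and the respiratory chain shrink.

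The plot of library composition shows that storage protein genes filled similar shares of most libraries while their identity changed. Larval replicate 3 is the library with the smallest such share. Other highly expressed secreted proteins also shifted. Obp99b, of the odorant-binding protein family, read 242996, 161219.7 and 107667 in the larvae and 408193, 386955 and 342657 in the prepupae and rose by 1.23 ± 0.28. The clotting protein gene fon fell from 217678 ± 31189.5 (SD, n = 3) to 16867 ± 2658, and the cuticular protein gene Cpr49Ac rose from 4768 ± 1898 to 209595 ± 34473.

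Most ecdysone response genes differed between the stages. Of 21 listed receptors and response factors, 15 rose, 5 fell and 1 did not pass, with a median of 1.19 against 0.08 for all genes. Hr3, a nuclear receptor induced at the peak of the hormone, read 3.56, 0 and 0.999 in the larvae and 1545, 1771 and 2005 in the prepupae. Eip93F, which encodes the metamorphosis factor E93, read 0, 0 and 1.37 in the larvae and 1588, 1567 and 1922 in the prepupae. Both were at or next to 0 in every larva, and the log2 differences were 9.72 ± 0.46 and 10.30 ± 0.49. Hr4, a nuclear receptor that acts beside Hr3, and Eip78C differed by 11.86 ± 0.37 and 7.28 ± 0.26. The early genes were already expressed in larvae. br, the Broad-Complex, read 2000.3, 1438 and 1332 in the larvae and 11974, 12338 and 12275 in the prepupae (2.96 ± 0.16). Eip75B rose by 2.71 ± 0.12 and Eip74EF by 1.19 ± 0.23, and neither overlapped between the stages.

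The receptor gene itself fell. EcR read 979, 753 and 550.3 in the larvae and 122, 142 and 178 in the prepupae, a log2 difference of -2.34 ± 0.22 (adjusted p = 6.1e-06). Its partner usp rose by 0.54 ± 0.12 and the coactivator gene tai by 0.47 ± 0.09. ftz-f1, a nuclear receptor gene that is expressed when the hormone is low in the middle of the prepupal period, read 177, 150.1 and 169 in the larvae and 25.96, 34.5 and 23.3 in the prepupae (-2.54 ± 0.23). Cth, known as the ecdysone-inducible gene Eip55E and encoding a cystathionine gamma-lyase, fell, at -1.57 ± 0.17.

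Genes that make or remove ecdysteroids gave a mixed picture among 5 measured members. shd, the enzyme that turns ecdysone into 20-hydroxyecdysone in peripheral tissues, read 1079, 907 and 732 in the larvae and 12.5, 28.01 and 23.99 in the prepupae (-5.39 ± 0.28). Cyp18a1, which inactivates the hormone, fell from 40.4 ± 1.67 to 1.14 ± 1.13. sad, an enzyme of ecdysone synthesis in the prothoracic gland, was listed at 0 in all 3 larvae and read 300.4, 147 and 553 in the prepupae; its exons overlap those of CG6962 slightly, and whether counting used strand is not stated. The 4 measured ring gland markers, sad among them, held between 0.00202% and 0.00452% of a larval library and between 0.00688% and 0.00798% of a prepupa library; sro, another gene of ecdysone synthesis, read 1222, 987 and 458 and 1512, 1476 and 1392 (0.83 ± 0.31, adjusted p = 0.038), and missed without larval replicate 3, at 0.41, or without any 1 of the prepupae. Akh and jhamt, the other markers, read at most 6.90 in any library. Their part in the rise of sad was not tested. Of 10 juvenile hormone genes 3 rose and 2 fell (50% called, below the 66.4% over all genes tested). Kr-h1, the transcription factor downstream of juvenile hormone, read 385, 308 and 336 in the larvae and 1429, 1210.4 and 1350.4 in the prepupae (1.96 ± 0.13). The receptor gene Met fell, at -0.999 ± 0.26 (adjusted p = 0.007).

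**Figure D3:**
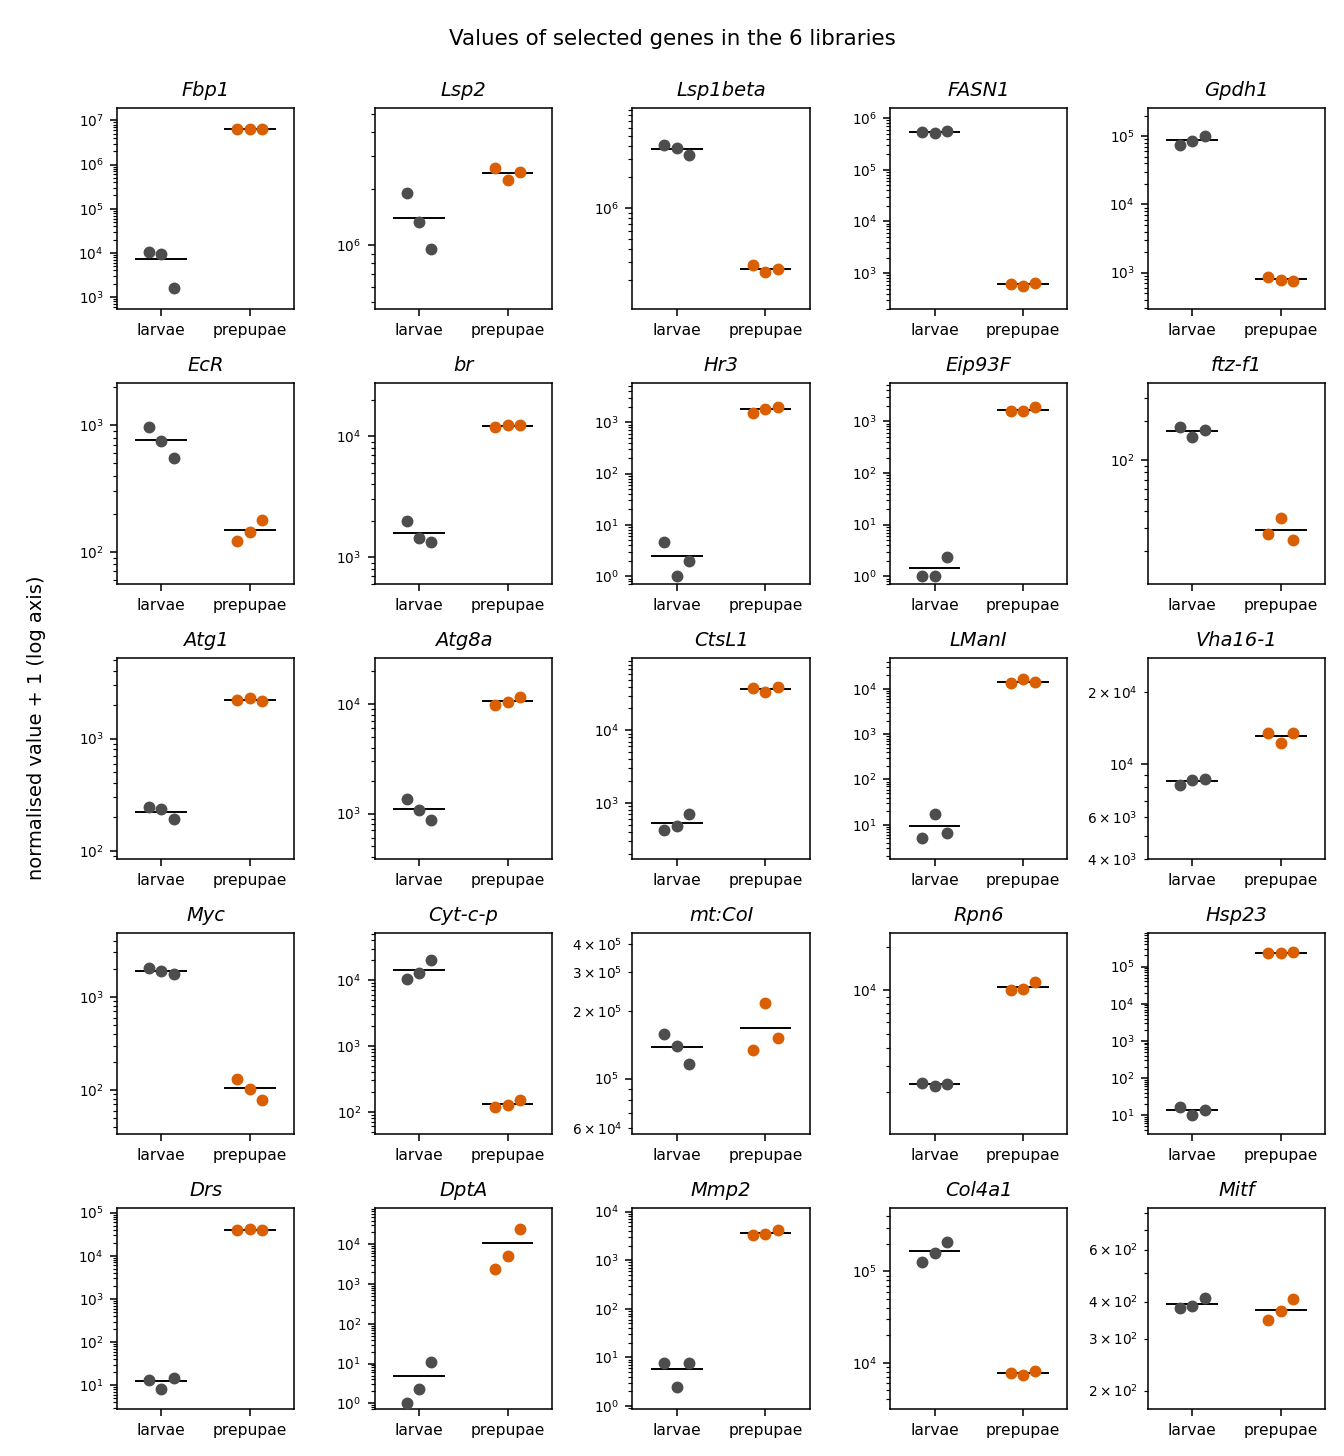
Normalised value + 1 (log axis, each panel on its own scale) of 25 genes in the 3 larval and 3 prepupa libraries; points are libraries and the short bars their means. Mitf and mt:CoI overlap between the stages, while genes such as Hr3, Eip93F, Hsp23 and Drs go from near 0 to high values, and FASN1, Gpdh1, Cyt-c-p and Myc fall in every library.

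The panels by library show how little most of these values varied within a stage compared with the distance between stages; DptA and Fbp1 are among those with a wide spread in 1 of the stages.

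Autophagy genes rose together. Among 26 genes that build the autophagosome, 19 rose and 2 fell, with a median log2 difference of 1.41. Atg1, the kinase that starts the process, read 243, 237 and 189.9 in the larvae and 2180.1, 2305 and 2176 in the prepupae (3.32 ± 0.23). Atg8a, whose lipid-bound product coats the autophagosome, read 1363, 1076 and 867 and 9848, 10464 and 11662 in the same order (3.29 ± 0.21). In neither gene did any library of one stage reach the other stage. The conjugation enzyme genes Atg7 and Atg3 rose by 4.21 ± 0.14 and 2.09 ± 0.13, and the lipid transfer gene Atg2 by 2.85 ± 0.10. Atg18b, of the family of phosphoinositide-binding WIPI proteins, showed the largest rise in the list, from 54.8 ± 15.5 to 2756 ± 79.0. ref(2)P, the fly p62 receptor for ubiquitinated cargo, read 1227, 1260.0 and 959 and 7912, 8302 and 11568 (3.00 ± 0.49). The members that fell were Atg10 (-0.71 ± 0.27, adjusted p = 0.044), an enzyme that conjugates Atg12, and Tango5 (-0.96 ± 0.10). The call of Atg10 was lost when any 1 of the 6 libraries was left out, with log2 differences between -0.77 and -0.58, so that 1 member of the list then fell.

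Genes for the joining of autophagosomes with lysosomes followed, with 28 of 38 higher, 3 lower and a median of 0.81. The endosomal syntaxin genes Syx13 and Syx7 rose by 5.56 ± 0.13 and 2.36 ± 0.17, and the SNARE gene Ykt6 by 3.54 ± 0.10. Syx17, the syntaxin of the autophagosome, rose from 116 ± 27.7 to 420.1 ± 7.70, and the late endosomal GTPase gene Rab7 from 1382 ± 68.6 to 6227 ± 799.6. Hrs, which sorts ubiquitinated cargo at endosomes, rose by 3.91 ± 0.14. Rab9, a GTPase of transport from late endosomes, went the other way, from 295, 341 and 351 to 1.83, 7.66 and 3.65 (-6.08 ± 0.35). Vps33B and car, the Vps33 genes of the family, fell, at -0.63 ± 0.12 and -0.38 ± 0.12, and the call of car was lost without larval replicate 1 or 2 or prepupa replicate 2 or 3, at -0.35 to -0.32.

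Lysosomal enzymes showed some of the largest rises of the list-based groups, beside clear falls. Of 41 genes for hydrolases and membrane proteins of the lysosome 24 rose and 10 fell, with a median of 1.27. Together they held 0.207%, 0.21% and 0.224% of the larval libraries and 1.2%, 1.19% and 1.17% of the prepupa libraries. CtsL1, a cathepsin L, read 419.7, 475 and 698 in the larvae and 37822, 33948 and 39555 in the prepupae (6.16 ± 0.17, adjusted p = 2.2e-09). cathD, the cathepsin D gene, read 4168, 3463 and 2320.5 and 94775, 93038 and 96560.1 (4.88 ± 0.22), and the cathepsin B gene CtsB rose by 4.48 ± 0.32. No prepupa value of these proteases came near a larval one. The alpha-mannosidase genes LManI and LManII rose by 10.76 ± 0.38 and 7.33 ± 0.17, LManI from 4.17, 16.3 and 5.46 to 13207, 16140.4 and 13942. Gal, a beta-galactosidase, rose by 6.95 ± 0.41. The membrane protein gene Lamp1 and the cholesterol export genes Npc1a and Npc2a rose by 1.36 ± 0.10, 2.85 ± 0.09 and 2.64 ± 0.37. Other members of the Npc2 family fell: Npc2h read 1868, 2357 and 2896 and 10.9, 6.99 and 2.63 (-8.38 ± 0.44), and Npc2f fell, at -2.78 ± 0.24. DNaseII, the acid nuclease, fell, at -3.91 ± 0.24, and spin, a transporter of the lysosomal membrane, at -1.69 ± 0.18, from 594, 444 and 398 to 131, 145 and 162.

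The proton pump of the lysosome changed less. Of 22 V-ATPase genes 12 rose and 2 fell (63.6% called against 66.4% of all genes tested), with a median of 0.40. Vha16-1, the main proteolipid of the membrane ring, read 8190.5, 8551 and 8618 and 13499.7, 12234 and 13501 (0.63 ± 0.11). Among the genes for the large membrane subunit a, Vha100-1 rose by 1.71 ± 0.15 while Vha100-2 fell, at -2.24 ± 0.15, each without overlap between the stages. Mitf, whose values were known when the comparison was chosen, did not pass, at -0.06 ± 0.20 (adjusted p = 0.81).

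**Figure D4:**
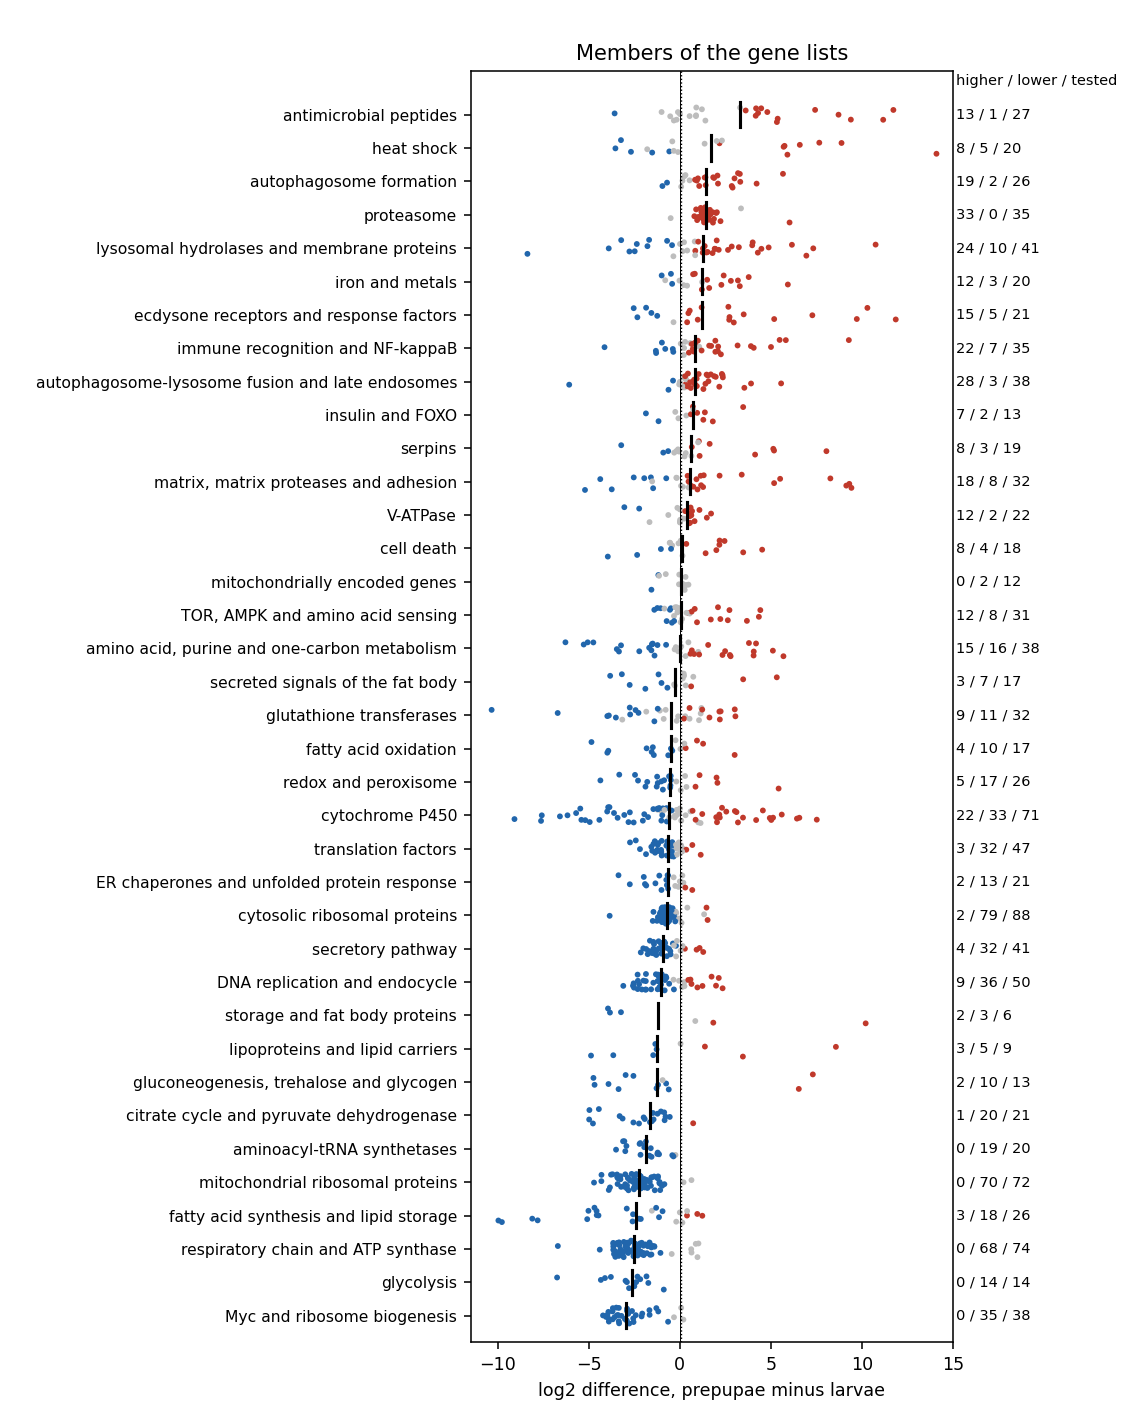
Every tested member of 37 gene lists as a point at its log2 difference between prepupae and larvae (horizontal axis), with red and blue for members higher and lower at an adjusted p of 0.05 in limma, grey for the rest, and a black bar at each list's median; the dotted line is the median of all genes, 0.08. Numbers at the right give members higher, lower and tested, from ribosome biogenesis, glycolysis and the respiratory chain at the bottom to antimicrobial peptides at the top.

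The plot of gene lists places the groups on one scale: degradation and immunity lie to the right of the dotted line, and synthesis of fat, energy metabolism and translation to its left.

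Proteasome genes rose as a block. Of 35 measured genes 33 rose and none fell. The median was 1.41, and the summed share grew from 0.222%, 0.232% and 0.265% of the larval libraries to 0.665%, 0.693% and 0.722% of the prepupa libraries. Among the Rpn and Rpt genes of the regulatory particle 19 of 20 rose, with a median of 1.63, and among the genes of the catalytic core 13 of 14, with a median of 1.17. Rpn6 read 2289, 2202 and 2249 and 9971, 10284 and 11448 (2.23 ± 0.13), and Rpt6, an ATPase of the base, rose by 2.03 ± 0.18. Rpn11, the deubiquitinase of the lid, rose by 1.41 ± 0.13. Rpt6R, a copy of Rpt6 known from the testis, rose from 0.259 ± 0.448 to 82.3 ± 31.2. A copy of Rpt3 and Prosalpha1 were the members that did not pass; Prosalpha1 read 0, 36.0 and 128 and 153, 95.8 and 344, with overlapping groups, and differed by 3.36 ± 1.85 (adjusted p = 0.14). It was at 4.83 (adjusted p = 0.048) without larval replicate 3 and at 1.32 (adjusted p = 0.48) without larval replicate 1, and passed with the replicate block (adjusted p = 0.045).

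Nutrient signalling genes moved in both directions. Of 31 genes for TOR, AMPK and amino acid sensing 12 rose and 8 fell (64.5% called against 66.4% of all genes tested). The median was 0.04. Sesn, the sestrin that restrains TOR, read 429, 451 and 462 and 9877, 8984 and 9916 (4.42 ± 0.12). Thor, the translation repressor 4E-BP, rose from 937, 1203 and 1172 to 6818, 7342 and 6301 (2.63 ± 0.19). REPTOR-BP, the binding partner of a transcription factor held back by TOR, rose by 2.72 ± 0.23 and the AMPK subunit gene alc by 3.68 ± 0.10. The amino acid transporter gene slif rose from 11.3 ± 5.597 to 232 ± 56.3. S6k, the kinase downstream of TOR, fell from 1705, 1726 and 1758 to 578, 599 and 799.8 (-1.41 ± 0.13), and Lkb1, a kinase that activates AMPK, and Nup44A, a nucleoporin that also acts on TOR, fell, at -1.06 ± 0.27 and -1.24 ± 0.12. Scaled by library totals without the storage proteins, 5 members of this list fell in place of 8 and the median was 0.21.

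Of 13 insulin and FOXO genes 7 rose and 2 fell (69.2% called against 66.4% of all genes tested). Ilp6, the insulin-like peptide of the fat body, read 1505, 1742 and 1149 in the larvae and 15078, 16400.2 and 16812 in the prepupae (3.48 ± 0.23). foxo rose by 1.37 ± 0.19, Akt by 1.29 ± 0.17 and InR by 0.71 ± 0.13, while Pdk1 and the insulin-binding protein gene ImpL2 fell, at -1.87 ± 0.25 and -1.18 ± 0.23. Among 17 secreted signals 3 rose and 7 fell (58.8% called, below the share over all genes). Gbp1, a growth-blocking peptide sent from the fat body, rose from 89.5, 113 and 103 to 4078, 4064 and 4140.2 (5.32 ± 0.15). Genes of the imaginal disc growth factors did not rise: of 6 Idgf genes 3 fell and 3 did not pass. Idgf4 and Idgf6 were at -3.19 ± 0.17 and -2.76 ± 0.16. sun, which encodes a subunit of the ATP synthase that also acts as a signal, fell, at -3.83 ± 0.14.

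Genes for the main enzymes of fat synthesis fell. FASN1 (FBgn0283427, 2L:3056598-3068177 on the plus strand), the fatty acid synthase, read 538097, 504303 and 562339.8 in the larvae and 609.9, 563 and 644 in the prepupae. The larval mean was 883 times the prepupa mean, a log2 difference of -9.79 ± 0.27 (adjusted p = 2e-09). Its paralogue FASN2, which is also among the oenocyte markers below, fell, at -9.98 ± 0.67. ATPCL, which makes cytosolic acetyl-CoA from citrate, read 138416, 140914 and 173879.6 and 485, 602 and 542 (-8.12 ± 0.12), and ACC, which makes malonyl-CoA, read 113883, 115711 and 141227 and 4481, 2759 and 3768 (-5.09 ± 0.23). All 3 libraries of each stage stayed on their own side for each of these enzymes. The desaturase gene Desat1 fell, at -4.70 ± 0.30 and the acyltransferase gene Agpat2 at -7.82 ± 0.18. SREBP and SCAP, the regulators of lipid synthesis, fell, at -2.24 ± 0.09 and -2.58 ± 0.10. In the whole list of 26 genes 18 fell and 3 rose, the median was -2.41, and the summed share fell from 3.94%, 4.12% and 5.18% of the larval libraries to 0.381%, 0.36% and 0.363%. The coat protein genes of the lipid droplet split: Lsd-1 rose by 0.95 ± 0.19, from 22444, 23268 and 27719.6 to 50457, 44436 and 47014, and Lsd-2 fell, at -2.92 ± 0.24. The other members that rose were the lipase gene Hsl (0.39 ± 0.15) and the acyltransferase gene Agpat1 (1.23 ± 0.40). Without larval replicate 2 or prepupa replicate 3 neither passed, with Hsl at 0.35 and 0.40 and Agpat1 at 1.19 and 1.20, and 1 member of the list then rose; Hsl also missed without larval replicate 1 (0.33) or prepupa replicate 1 (0.28).

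Among lipid carriers the abundant members fell. apolpp, the apolipoprotein of lipophorin, the lipid carrier of the hemolymph, read 754196, 706403 and 719772 and 257760.3, 265383 and 265722 (-1.47 ± 0.27). The lipid transfer particle gene Apoltp and the assembly gene Mtp fell, at -3.66 ± 0.22 and -1.28 ± 0.09, and the receptor gene LpR1 at -4.89 ± 0.45. NLaz, a lipocalin related to apolipoprotein D, rose from 22.4, 16.4 and 20.5 to 7232, 7977 and 8391 (8.57 ± 0.36). Of 17 genes of fatty acid oxidation 10 fell and 4 rose, with a median of -0.49. yip2, a thiolase, and Mcad, an acyl-CoA dehydrogenase, rose by 3.01 ± 0.35 and 1.27 ± 0.20. Echs1, an enoyl-CoA hydratase, and the peroxisomal oxidase gene Acox57D-d fell, at -3.94 ± 0.09 and -4.86 ± 0.10.

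Genes of glycolysis fell at every measured step: all 14 listed genes were lower, with a median of -2.65. Gpdh1, glycerol-3-phosphate dehydrogenase, read 72830.5, 84781 and 101778 and 862, 779.9 and 746 (-6.75 ± 0.20). Pgi and Pglym78 fell, at -4.34 ± 0.15 and -4.12 ± 0.11, Eno at -2.80 ± 0.12, Pfk at -1.84 ± 0.12 and PyK, pyruvate kinase, from 60286, 65105 and 76480.5 to 4698, 4670.1 and 5108 (-3.79 ± 0.12). The summed share of the list fell from 1.98%, 2.25% and 2.76% to 0.283%, 0.281% and 0.259%. Phosphoenolpyruvate carboxykinase, which runs the opposite way, rose. Pepck1 read 1082, 1876 and 432 and 96159, 87237 and 83324 (6.53 ± 0.76), and Pepck2 read 289, 224 and 238 and 42449, 43206 and 33644 (7.30 ± 0.19). No other of the 13 genes for gluconeogenesis, trehalose and glycogen rose, and 10 fell. Among these were PCB, pyruvate carboxylase, at -4.75 ± 0.24, the glycogen enzyme genes Glyp and Glys at -4.69 ± 0.20 and -3.92 ± 0.16, and Tps1, which makes trehalose, at -1.20 ± 0.13.

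Most nuclear genes of the citrate cycle and the respiratory chain fell. Of 21 genes of the citrate cycle and pyruvate dehydrogenase 20 fell. kdn, citrate synthase, read 8073, 9934 and 19251 and 408, 351 and 334 (-4.99 ± 0.27), and the pyruvate carrier gene Mpc1 fell, at -4.97 ± 0.21; Scsalpha1, a subunit of succinyl-CoA ligase, rose by 0.73 ± 0.10. Of 74 nuclear genes of the respiratory chain and ATP synthase 68 fell and none rose, with a median of -2.54. Cyt-c-p, the cytochrome c of most tissues, read 10264, 12663 and 20089 and 116, 127 and 151 (-6.71 ± 0.27), and ATPsynC, the ring subunit of the ATP synthase, read 51027, 57951 and 72901 and 5032, 4449.9 and 4781 (-3.66 ± 0.15). Among the 66 members with a group mean of at least 100 every one was lower, between -1.07 and -6.71. Members that fall can pass that cut through the larvae alone. The 6 members of the list that did not pass, the highest at 1.02, all lay outside the cut.

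The 12 measured genes of the mitochondrial genome, a list added after values were seen, held 1.49%, 1.45% and 1.37% of the larval libraries and 1.27%, 2.27% and 1.43% of the prepupa libraries. None rose and 2 fell (16.7% called, below the 66.4% over all genes tested). mt:CoI, a subunit of cytochrome oxidase, read 159137, 140175 and 116147 in the larvae and 134229.7, 217965 and 152901 in the prepupae, with overlapping groups (0.26 ± 0.23, adjusted p = 0.35). mt:CoII differed by 0.47 ± 0.28 and also overlapped. mt:ATPase6 fell from 34286, 30813 and 30385 to 11313, 19939.7 and 12106 (-1.19 ± 0.20, adjusted p = 0.00045), and mt:ATPase8, which overlaps it in the genome, fell, at -1.57 ± 0.52. That call was lost without larval replicate 1 (-1.22), prepupa replicate 1 (-1.39) or prepupa replicate 3 (-1.19). Among the prepupae, replicate 2 had the highest value of each of the 12.

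Growth genes fell. Myc, the transcription factor that drives ribosome production, read 2065, 1918 and 1745 in the larvae and 129, 102 and 77.5 in the prepupae (-4.23 ± 0.24, adjusted p = 1.7e-07). Of 38 genes for Myc and ribosome biogenesis 35 fell and none rose, with a median of -2.95. Fib, fibrillarin, read 1071, 1353 and 2252 and 95.9, 106 and 92.5 (-3.91 ± 0.26), and Nop60B, the pseudouridine synthase dyskerin, and nop5 fell, at -4.06 ± 0.24 and -3.91 ± 0.23. Cytosolic ribosomal protein genes fell less: 79 of 88 fell and 2 rose, with a median of -0.71, and their summed share went from 6.6%, 7.07% and 8.44% to 4.63%, 4.7% and 4.56%. RpS2 read 31164, 31102 and 33994 and 11406, 11705 and 11055 (-1.49 ± 0.11). The members that rose, RpS19b and RpS5b, are copies known from the germline, with low means of 21.0 and 106 in the prepupae. Mitochondrial ribosomal protein genes fell further, 70 of 72 with a median of -2.28 (without larval replicate 3, 1 member also rose), led by mRpL55 at -4.72 ± 0.21.

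Genes for charging tRNA fell in 19 of 20 cases, with a median of -1.88 and HisRS at -3.51 ± 0.08. Of 47 translation factor genes 32 fell and 3 rose (74.5% called against 66.4% of all genes tested). eEF1alpha1, the elongation factor that carries tRNA to the ribosome, was among the abundant genes of both stages and read 299004, 312080.5 and 336587 and 301588, 271604 and 299307, without a difference beyond the spread (-0.12 ± 0.21, adjusted p = 0.64). eEF1delta fell, at -2.74 ± 0.13 and eIF4G2 rose by 1.14 ± 0.21. Genes of DNA replication and the endocycle, by which larval fat body cells become polyploid, fell in 36 of 50 cases and rose in 9: Cdc45 at -3.11 ± 0.29 and PCNA at -2.09 ± 0.18, from 676, 759 and 745 to 157, 202 and 154. The mitotic genes Cdk1 and CycB were low in both stages and rose, Cdk1 from 16.0 ± 4.29 to 84.1 ± 11.4 and CycB from 56.8 ± 3.75 to 193 ± 27.2.

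Genes of the secretory route fell. Of 41 secretory pathway genes 32 fell and 4 rose, with a median of -0.96. All 11 genes of the Sec61 channel, the signal recognition particle and the translocon fell, with a median of -1.45; Sec61alpha read 39954, 41083 and 31964 and 14417, 12197 and 12014 (-1.54 ± 0.13). Rab1, the GTPase of transport from the endoplasmic reticulum to the Golgi, rose by 0.92 ± 0.11, and the coat genes Sec24AB and Sec24CD moved apart, at 1.28 ± 0.11 and -1.77 ± 0.10. Among 21 chaperones and stress genes of the endoplasmic reticulum 13 fell and 2 rose (71.4% called against 66.4% of all genes tested). Without larval replicate 3, prepupa replicate 1 or prepupa replicate 3, 1 rose. Pdi, protein disulfide isomerase, read 166147, 153993 and 135520.1 and 16153, 14264 and 13454 (-3.38 ± 0.17), and Gp93 fell, at -1.99 ± 0.34. Xbp1, the transcription factor of the unfolded protein response, differed by 0.19 ± 0.09 and did not pass (adjusted p = 0.073); scaled by library totals without the storage proteins it was at 0.36 (adjusted p = 0.0052).

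Most small heat shock genes within 1 stretch of chromosome arm 3L rose from low values. Hsp23 (3L:9381882-9382765, BDGP6) read 15.8, 9.04 and 13.0 in the larvae and 226218, 232252 and 243875 in the prepupae, a log2 difference of 14.10 ± 0.21 (adjusted p = 9.8e-11). Hsp27 (3L:9384063-9385694) read 95.8, 57.9 and 49.4 and 12833, 13016 and 14229.7 (7.66 ± 0.31). These small chaperones are known in flies to be induced by ecdysone as well as by heat. Hsp26, Hsp67Ba and Hsp22 of the same 14.2 kb stretch rose by 6.59 ± 0.46, 5.75 ± 0.31 and 5.91 ± 0.87, and Hsp67Bc was listed at 0 in all larvae and read 19.2, 239 and 28.02 in the prepupae. All 6 tested genes there with Hsp names rose, and of the 10 tested genes in and next to the stretch 8 rose. Fdx1, the neighbour on the left, fell by 2.19. Hsp22 shares exon sequence with CG4456, so the values of these genes are uncertain.

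**Figure D5:**
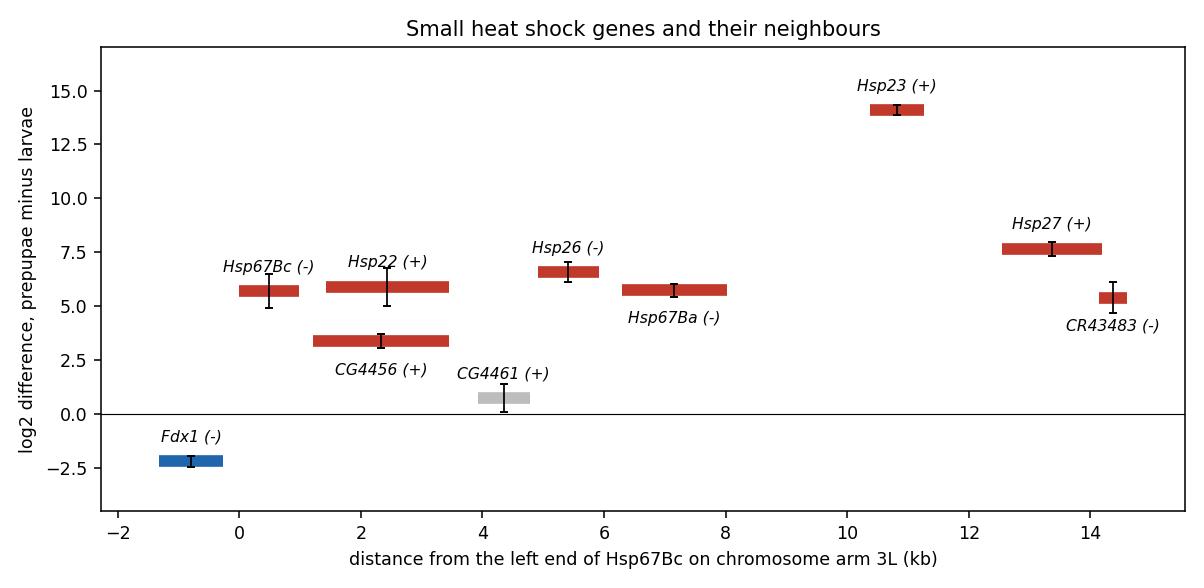
Log2 difference between prepupae and larvae (vertical axis, bars show the SE) of the 10 tested genes in and beside the group of small heat shock genes, placed by distance in kb from the left end of Hsp67Bc (horizontal axis). The 6 genes with Hsp names lie above 5, Hsp23 at 14.10 highest, and Fdx1 at the left lies below 0; Hsp67Bc was listed at 0 in all larvae, so its height depends on the pseudocount.

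The map of the region shows that size differed widely among neighbours: Hsp23 stood above all others and CG4461, a small heat shock relative between Hsp22 and Hsp26, was close to 0 in both stages and did not pass (0.74 ± 0.65, adjusted p = 0.34). In the heat shock list of 20 genes 8 rose and 5 fell (65% called against 66.4% of all genes tested). The median was 1.69, or 0.23 without prepupa replicate 3. Hsp70Bb read 9.70, 26.2 and 22.5 and 8316, 9321 and 9275 (8.88 ± 0.31), the only one of 5 near-identical Hsp70 genes to pass, so that reads could have been divided unevenly among copies. Hsp83, the Hsp90 of flies, fell, at -1.52 ± 0.36, and the mitochondrial chaperones Hsp60A and Hsc70-5 fell, at -3.24 ± 0.23 and -2.69 ± 0.21. Prepupa replicate 3 was high in several heat shock genes: Hsp26 read 1387, 1556 and 5020.3, Hsp22 58.5, 85.9 and 919 and Hsp68 1280.1, 1023 and 5779 in the prepupae. Without that library the log2 difference of Hsp68 was 1.40 (adjusted p = 5.1e-05) in place of 2.17. Hsp23 and Hsp27 were steady across the 3 prepupae.

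The antimicrobial peptide genes that were called mostly rose, some evenly and some mainly in 1 library. Of 27 listed genes 13 rose, 1 fell and 13 did not pass (51.9% called, below the 66.4% over all genes tested). The median was 3.31, or 1.99 without prepupa replicate 3. Drs, the antifungal peptide drosomycin, read 12.4, 7.40 and 13.9 in the larvae and 40149, 41888 and 39192 in the prepupae (11.73 ± 0.26, adjusted p = 8.5e-10). Bbd, the bombardier gene of the Toll pathway, read 343, 243 and 236 and 10864, 11029 and 10801 (5.33 ± 0.28). Both were even across the prepupae. Other members were uneven: DptA, a diptericin, read 0, 1.24 and 10.1 and 2452, 4975 and 24913 (11.17 ± 0.99), and DptB read 6.88, 9.89 and 37.2 and 212, 279.6 and 3899 (5.37 ± 1.43, adjusted p = 0.0076). Prepupa replicate 3 was the high library in both, as it was for the metchnikowin gene Mtk, at 1936, 1486 and 5564, and for the bomanin gene BomS3, at 24.5, 40.1 and 944. Without it, 3 members of the list fell in place of 1, and the log2 difference of BomS3 was 1.99 (adjusted p = 0.0037) in place of 3.62. That library also held more of its values in pseudogenes of ribosomal RNA, 3.01% against 0.991% and 1.03% in the other prepupae; their part in the differences was not tested.

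Of 35 genes for immune recognition and NF-kappaB signalling 22 rose and 7 fell (82.9% called against 66.4% of all genes tested). Among 13 peptidoglycan recognition protein genes 9 rose, 1 fell and 3 did not pass. PGRP-SC2, an enzyme that breaks down peptidoglycan, read 2.76, 8.70 and 14.7 and 5409.9, 2878 and 8932 (9.28 ± 0.53), and PGRP-LC, the receptor of the Imd pathway, read 214, 297 and 252 and 2170.5, 2185 and 2492 (3.17 ± 0.14). The NF-kappaB genes Rel and Dif rose by 1.72 ± 0.10 and 1.61 ± 0.14. Some members of the Toll pathway upstream of Dif were among the genes that fell. These were the receptor gene Tl at -0.81 ± 0.17, the ligand gene spz at -0.99 ± 0.17, and SPE, the protease that activates the ligand. SPE went from 1484, 1497 and 1256 to 77.7, 79.3 and 79.2 (-4.14 ± 0.15). Other upstream members are not described here.

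Matrix genes moved in both directions. Of 32 genes 18 rose and 8 fell (81.2% called against 66.4% of all genes tested). Mmp1 and Mmp2, the matrix metalloproteases of the fly, read 21.4, 28.9 and 42.8 and 6.51, 1.46 and 6.68 in the larvae and 9428, 8145 and 11219 and 3331, 3395 and 4085 in the prepupae, with log2 differences of 8.27 ± 0.23 and 9.43 ± 0.39. Their inhibitor gene Timp rose by 5.51 ± 0.19 and the secreted protease gene sona by 9.14 ± 0.61. The collagen IV genes Col4a1 and vkg, major products of the larval fat body, fell. Col4a1 read 126912, 160002 and 208472 and 7815, 7314 and 8237 (-4.38 ± 0.28), and vkg fell, at -5.22 ± 0.25. SPARC, a collagen-binding protein, fell, at -2.54 ± 0.14 and trol, perlecan, at -0.75 ± 0.12, while the nidogen gene Ndg rose by 1.31 ± 0.23 and the laminin gene LanA by 0.47 ± 0.14 (adjusted p = 0.015; missed without larval replicate 1 or 2 or prepupa replicate 1, at 0.37 to 0.43). In cell contacts, the E-cadherin gene shg rose from 70.7, 72.4 and 76.2 to 2544, 2555 and 2959.7 (5.18 ± 0.12), the innexin gene Inx7 by 9.31 ± 0.47, and the integrin gene if fell, at -3.75 ± 0.15.

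Cell death genes gave 8 rises and 4 falls among 18 (66.7% called, close to the 66.4% over all genes tested). Their median was 0.09. Dark, the Apaf-1 of flies, read 65.2, 58.7 and 62.2 and 1271, 1411 and 1676 (4.52 ± 0.13), and the initiator caspase gene Dronc rose by 3.48 ± 0.46. The effector caspase gene Drice rose by 1.41 ± 0.10, and so did Diap1, the inhibitor of caspases, by 2.17 ± 0.09. hid, a killer gene that blocks Diap1, was low and fell, at -1.05 ± 0.25 (adjusted p = 0.0039). Cytoskeletal genes were divided, with Act5C up by 2.57 ± 0.19 and betaTub56D down at -3.02 ± 0.09; reads of near-identical actin and tubulin copies may have been split.

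Amino acid and nucleotide enzymes changed strongly in both directions, with 15 of 38 higher, 16 lower and a median of -0.01. Genes of purine synthesis mostly rose: of 12 genes for it and its folate enzymes, a subset chosen after values were seen, 9 rose and 2 fell, with a median of 1.95. Paics read 3386, 3229 and 2652 and 58566, 58557 and 50701 (4.18 ± 0.15), and Gart rose by 3.79 ± 0.15. The first enzyme has 2 genes that moved apart, Prat2 up by 2.48 ± 0.21 and Prat down at -2.23 ± 0.23. Pu, the enzyme that starts pteridine synthesis from GTP, read 575, 707 and 769 and 35432, 35624 and 34179 (5.69 ± 0.14). Gs1, a glutamine synthetase, rose by 5.11 ± 0.12 and Oat, ornithine aminotransferase, by 4.06 ± 0.25. Gdh, glutamate dehydrogenase, fell from 22058, 17768 and 18182 to 397, 478 and 626 (-5.29 ± 0.24), and arginase, arg, fell, at -6.29 ± 0.12.

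Most iron and metal genes rose. Of 20 such genes 12 rose and 3 fell (75% called against 66.4% of all genes tested), or 1 fell at the least when prepupa replicate 1 or 2 was left out. Tsf1, the transferrin of the hemolymph, read 1932, 1424 and 1680.0 and 123071, 97830.3 and 87562 (5.93 ± 0.15). The ferritin genes Fer1HCH and Fer2LCH rose by 2.40 ± 0.19 and 2.28 ± 0.14, and Irp-1A, an iron regulatory protein, by 2.80 ± 0.19. The list of fat body regulators split, with 16 of 33 higher and 12 lower. Its lowest value, -8.59, is that of bgm, an acyl-CoA synthetase gene, so the counts are not of regulators alone. Sox14, an ecdysone-induced factor, rose from 392.1, 384 and 235 to 5199.7, 4783 and 5412 (3.96 ± 0.20). The transcription factor genes zfh1 and Stat92E rose by 4.98 ± 0.12 and 3.08 ± 0.14, while the PAR factor gene Pdp1 fell, at -5.998 ± 0.14 and Hnf4, a nuclear receptor of lipid metabolism, at -1.53 ± 0.10.

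The largest rises and falls were not all in these groups. Among named genes whose higher group averaged at least 1000, santa-maria, a scavenger receptor of the CD36 family, was listed at 0 in all larvae and read 48544, 50967 and 51658 in the prepupae. Ama, a secreted protein with immunoglobulin domains, read 0, 2.49 and 2.35 and 37702, 35925 and 34577 (13.96 ± 0.41). The serine protease genes Sp212 and Ser7, the multicopper oxidase gene Mco4 and the cathepsin gene CtsL3 differed by 12.14 ± 0.36, 11.32 ± 0.41, 10.67 ± 0.33 and 11.12 ± 0.31. The SE does not cover the choice of processing. Under the alternatives Sp212 lay between 10.14 and 14.57 and Ser7 between 9.28 and 13.78. Mco4 lay between 8.56 and 13.23 and CtsL3 between 9.72 and 11.83. Among genes with a symbol and such a mean, the largest fall was that of GstD7, a glutathione transferase, from 9126, 7559 and 9125 to 5.48, 6.43 and 4.89 (-10.35 ± 0.68). Aldh, the mitochondrial aldehyde dehydrogenase, fell from 42009, 40949 and 58472 to 52.99, 51.1 and 49.9 (-9.80 ± 0.19). Besides FASN1, FASN2 and other genes given elsewhere, su(r), which starts pyrimidine breakdown, the acyl-CoA synthetase gene bgm and the esterase gene Est-6 fell, at -8.88 ± 0.37, -8.59 ± 0.23 and -8.22 ± 0.24. Of genes listed at 0 in all larvae, 23 averaged over 100 in the prepupae, with CG34206 at 30879.6, 36194 and 37066. In the other direction there were 2, lectin-24A at 456, 594 and 753 and Ugt37A2 at 177, 97.3 and 76.3 in the larvae.

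Markers of other tissues were measured beside the fat body genes. Over all genes tested 66.4% were called, and among the marker lists only muscle (81.2%) and gonad (80%) exceeded that share. Of 16 muscle markers 12 fell and 1 rose, with a median of -2.35, from low levels: Mhc, the myosin heavy chain, read 25.0, 54.9 and 147 and 1.84, 5.09 and 1.22, and Prm 209, 197 and 175 and 8.56, 5.96 and 5.68. Of 12 hemocyte markers 3 rose and 1 fell (2 without larval replicate 2). The one that fell was Hml, at 66.6, 312 and 102 and 18.3, 10.18 and 19.4. The highest log2 difference in that list was 3.40. Its members together held between 0.00289% and 0.01008% of a larval library and between 0.00881% and 0.01215% of a prepupa library. Of 18 midgut markers 6 fell and 3 rose, all at low values. Of 15 Malpighian tubule markers 3 rose and 3 fell, with log2 differences between -7.03 and 4.36. The lowest was that of Alp4, from 2191, 2762 and 2571 to 16.4, 12.8 and 27.95. Leaving out 1 library raised the tubule counts to at most 5 and 6. Of 10 gonad markers 8 rose and none fell; Mst87F, a sperm protein gene, was listed at 0 in the larvae and read 341, 368 and 373 in the prepupae. Of 7 neuron markers 2 rose and none fell (1 without larval replicate 3), and Syt1, a synaptotagmin, was far above the others, at 3371, 2760.3 and 2116 and 20690.2, 20115 and 19299.9. Of 7 trachea markers 2 rose and none fell, and of 16 markers of imaginal discs and epidermis 5 rose and 4 fell (2 without larval replicate 3 or prepupa replicate 1). Of 5 oenocyte markers 2 rose, or 1 to 3 with 1 library left out, with a highest log2 difference of 3.46. The one that fell was FASN2. The 1 salivary gland marker measured held at most 4.19e-05% of a library and did not pass. The part of these tissues in the differences above was not tested.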

How the data were processed

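Poly(A) RNA from fat bodies was sequenced from stranded libraries, per the labels' protocols. The submitters' processing notes name bcl2fastq, Salmon 1.5.2, DESeq2 and the build BDGP6. The deposited values are a normalised signal per gene: they are not whole numbers, and over the 7791 genes above 0 in every library the median ratio to the geometric mean was 0.9926 in each, as size factors of DESeq2 give. The read depth behind them is not given in the sources used here, so no counting intervals were computed.

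Values were fitted as log2(value + 1) with limma 3.58.1 in R 4.3.3, with 1 coefficient per group over all 9 libraries, a trended prior and Benjamini-Hochberg adjustment over the 10139 genes that passed the filter; 103 were left out. Calls used a two-sided adjusted p of 0.05. Differences are on the log2(value + 1) scale, which understates changes of low genes. Symbols and positions came from the Ensembl annotation of BDGP6, which named 10189 of the 10242 genes. The fit was tested on simulated data with normal noise and changes planted in genes well above 0. That test does not check calls of genes near 0 or with uneven libraries.

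The comparison, the 53 gene lists (1311 tested genes) and the rule for named genes were chosen with earlier results of these data known. The rule takes fixed genes of the study's question, the 12 largest rises and falls with a mean of at least 1000, genes listed at 0 in a stage, the 10 highest means per stage, and the 4 largest rises and falls per list. Of the 250 genes named, 188 came from it and 62 were chosen after their values were seen. Symbols of the lists that matched no gene of the files, 108, were not analysed here. The labels do not say whether replicate numbers pair the samples. Deviations of same-numbered libraries correlated at 0.056, -0.065 and 0.029, and those of differently numbered libraries at -0.104 to 0.066. With 3 libraries per stage, such correlations cannot exclude pairing. Alternatives changed the pseudocount, the filter, the scaling, the libraries fitted, the moderation and the replicate block, and left out each library.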

Additional observations from a re-analysis of the deposited data

How the results depend on the processing

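The counts of higher and lower genes stayed within 1.5 times under all 19 alternatives: between 3312 and 3902 higher, between 2899 and 3314 lower. Leaving out each library in turn gave 3312 to 3624 higher and 3051 to 3314 lower genes. The replicate block gave 3496 higher and 3166 lower. Of the 6737 called genes between 92.7% and 99.87% kept call and direction in an alternative, and none was called in the other direction. Scaling each library to its total without the 6 storage proteins moved the median of all genes by 0.161, and 57.4% of calls were then higher in place of 52.3%; differences of that size are relative to the scaling. Under it Mitf was at 0.11 and eEF1alpha1 at 0.054, reversed in sign and without a call, and Lsp2 and Xbp1 passed, Lsp2 also with library totals and robust moderation. Prosalpha1 passed with the replicate block and without larval replicate 3. Of the 238 called genes named, 231 kept their call in every alternative and 7 lost it in at least 1; these were Agpat1, Atg10, Hsl, LanA, car, mt:ATPase8 and sro, in scalings, pseudocounts, the fit of the 6 libraries alone or without single libraries. Where a stage was near 0 the size followed the pseudocount: Hsp67Bc was at 8.98 with 0.1 and 3.54 with 5, and Rpt6R at 3.99 with 5. Of 106 list counts 87 stayed within 1.5 times, and 9 of 53 list medians changed sign. Values carry no read counts, so the depth limit of low genes is unknown.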

Other observations

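Detoxification genes moved in both directions. Of 71 cytochrome P450 genes 22 rose and 33 fell, 77.5% called against 66.4% of all genes tested. Cyp6g1, known for its part in insecticide resistance, rose from 58.2, 56.1 and 26.4 to 4686, 4773 and 3508 (6.56 ± 0.27, SE, limma), and Cyp6t1 and Cyp304a1 rose by 7.52 ± 0.67 and 6.43 ± 0.20. Cyp6a2 fell from 1718, 1222 and 820.3 to 3.66, 1.28 and 0 (-9.09 ± 0.55). Cyp4ac1 fell, at -7.59 ± 0.16, and its neighbour Cyp4ac3 was listed at 0 in all prepupae after 107, 102 and 80.2 in the larvae. Among 32 glutathione transferase genes 9 rose and 11 fell, 62.5% called and so close to the share over all genes. In the group of GstD genes on chromosome arm 3R, GstD6 and GstD7 fell, at -6.72 ± 0.61 and -10.35 ± 0.68 while GstD3 rose by 3.01 ± 0.34; GstD1 differed by 0.29 ± 0.28 and did not pass. These genes are near-identical in parts, so reads may have been split between them.

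Other enzymes and carriers also moved in both directions. Prx6b, a peroxiredoxin, rose from 54.4 ± 21.3 to 2261 ± 422 (SD, n = 3), while the mitochondrial Prx3 fell from 4050.1 ± 357 to 194 ± 2.65; of 26 redox and peroxisome genes 17 fell and 5 rose. Of 19 serpin genes 8 rose and 3 fell (57.9% called, below the share over all genes), and in the Spn42D group Spn42Dd rose from 24.9, 23.7 and 13.98 to 5542, 5964 and 5407. Among 21 transporter genes 5 rose and 6 fell (52.4% called): Glut1, a glucose transporter, rose from 1.40, 2.83 and 3.39 to 3187, 3032 and 3006 (9.81 ± 0.26), and sea, the mitochondrial citrate carrier, fell, at -3.90 ± 0.12.

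Prepupa replicate 3 stood apart from the other prepupae in a small set of genes. Of 5448 genes with a prepupa mean of at least 100, 25 were at least 3 times as high in it as in the mean of the other prepupae. In the other direction, 5 were lower by at least that factor. That mean includes replicate 3, so genes low in the other prepupae could pass the cut through it alone. The counts of 25 and 5 are therefore not on equal terms. Besides the immune and heat shock genes described above, the high set held MtnA, a metallothionein gene, at 15.4, 27.8 and 468, and edin, an immune-induced gene, at 34.6, 66.3 and 368. The serpin gene Spn55B read 308, 278 and 2041 in the prepupae and did not pass between the stages. Larval replicate 3 stood apart from the other larvae in summed shares. It held 29% in the 6 genes for storage proteins and their relatives, against 42.6% and 39.5%. Citrate cycle genes held 1.04% of it against 0.624% and 0.706%, and heat shock genes 0.428% against 0.198% and 0.28%. Correlations of log2 values across genes were between 0.975 and 0.986 within a stage and between 0.797 and 0.824 across stages. These describe genes, which are not independent replicates.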
